A study of Apis mellifera with 12 samples.

Results

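The cuticle genes of the honeybee *Apis mellifera* were followed through embryogenesis in females and males, in 29 of the 17621 loci for which expression was deposited. The loci were chosen by name alone. A name had to begin with CPR, CPF, CPLC, TWDL, Apd or Cht, or with Osi and a number, to stand alone in its row and to have a valid estimate in all 12 libraries. Of 34 rows with such a name, 5 held a second gene name and were left out, and 0 failed the status of the estimate. The 29 members comprised 12 CPR, 2 CPF, 1 Tweedle, 4 apidermin, 2 chitinase and 8 Osiris loci, and 0 CPLC loci.

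The libraries were made from polyA RNA of whole wild-type embryos of the strain *Apis mellifera carnica*. There were 6 groups of 2 libraries: females and males at 10–15 h, at 25–40 h and at 55–70 h after egg laying. The study assigns 25–40 h to the end of the blastoderm and gastrulation and 55–70 h to the completion of the larva, and the time up to 15 h to the formation of the blastoderm. A library came from 1 pool of 100 embryos at 10–15 h, 60 at 25–40 h or 30 at 55–70 h, taken from 3 mothers, and the labels do not say whether the 2 pools of a group were collected separately. Females were diploid and males haploid. The study's methods name unmated, carbon dioxide-treated queens as a source of males; if this holds for these libraries, sex and kind of mother cannot be told apart. Each pool also spanned up to 15 h of development.

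Insect cuticle is secreted by the epidermis as chitin fibres embedded in protein. CPR proteins carry the Rebers–Riddiford motif, which binds chitin, and CPF and Tweedle proteins are further families of structural cuticle proteins. Apidermins are cuticle proteins described in the honeybee. Chitinases such as *Cht5* break chitin down, chiefly when old cuticle is shed. Osiris proteins are an insect-specific family of membrane proteins whose genes lie in a conserved cluster, and in *Drosophila* they are made by epithelia that secrete cuticle. In an embryo of this kind the first larval cuticle is laid down late, before hatching.

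Expression was given as FPKM (fragments relative to transcript length and to the mapped total of the library), which allows levels of different genes to be compared per length. Depth in reads is unknown. The FPKM of a library summed to between 426254 and 727448, between 7392 and 11048 loci reached 1 FPKM, and replicate libraries correlated across loci at r of 0.936 (males at 55–70 h) to 0.988. Of the loci with a valid estimate of at least 1 FPKM in a library, between 23.3% and 28.7% lay outside their own deposited confidence bounds. Differences were tested with limma on the log2(FPKM + 1) scale over the 10105 loci averaging 1 FPKM or more, and adjusted over all of them with a threshold of 0.05; this scale understates changes of weakly expressed genes. Of the 29 members 21 passed the filter. The others were the 4 apidermin loci, *CPF2*, *CPR15*, *CPR25* and *CPR9*, with means of 0.0355 to 0.895 FPKM. Since the libraries are of whole embryos, fewer cuticle-secreting cells and less RNA per cell cannot be told apart.

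Of the 29 members 15 averaged at least 10 FPKM at 55–70 h, and 9 of these were below 1 FPKM in all 8 earlier libraries. All 29 together made up 0.0386% and 0.0378% of a female library's FPKM at 10–15 h, against 0.0364% and 0.0332% in males. The share was similarly small at 25–40 h, namely 0.0240% and 0.0301% for females against 0.0293% and 0.0241% for males. By 55–70 h it had reached 0.939% and 0.726% in the female libraries, but 0.227% and 1.09% in the male libraries. These 2 male libraries thus lay on either side of both female libraries. In 13 tested members every library at 55–70 h was above every earlier library. Among them are the 9 just named and *Cht3*, which could pass the filter only through 55–70 h. The shares of all tested loci with this pattern, or averaging at least 10 FPKM at 55–70 h, were not computed, so these counts are a description only.

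**Figure D1:**
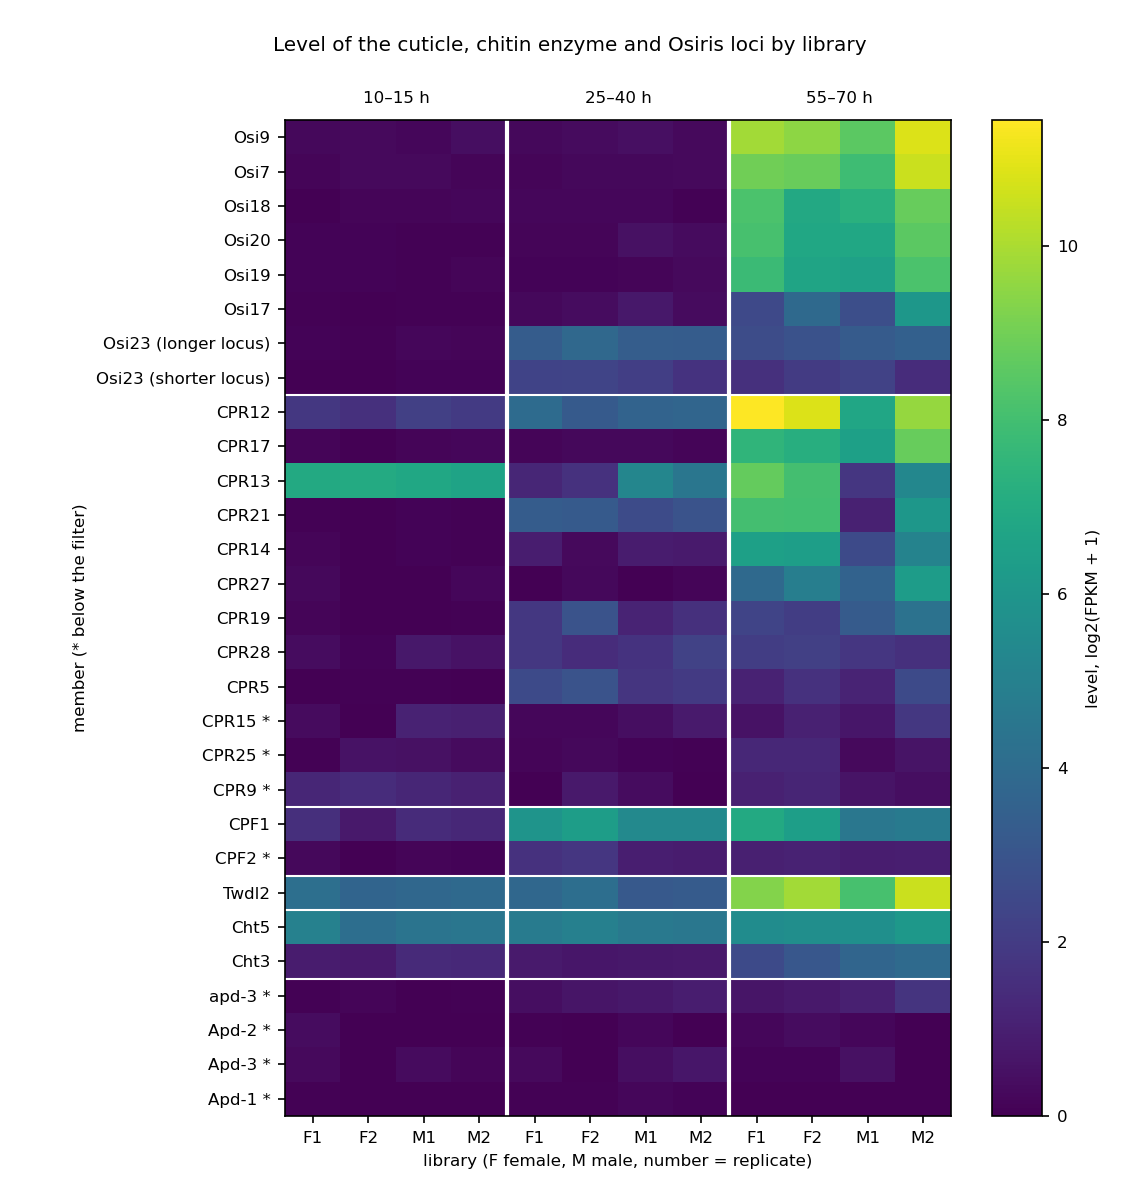
Level of each of the 29 members on the log2(FPKM + 1) scale (colour) in each of the 12 libraries, females left of males within each age; stars mark the 8 members below the filter. Most rows are dark until 55–70 h, *CPR13* is bright at 10–15 h, and male replicate 1 at 55–70 h is darker than replicate 2 in most of the bright rows.

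From 25–40 h to 55–70 h, averaged over the sexes, 16 of the 21 tested members rose and 0 fell, where 36.4% of all tested loci rose and 19.0% fell. The median difference was 3.38 over the members and 0.23 over all tested loci. For 9 of the 21 this is a description only, because they were below 1 FPKM in all 8 earlier libraries and could pass the filter only through 55–70 h. This pattern was shown by 4.26% of all tested loci. The same limit holds for *Cht3*, which averaged below 1 FPKM over the 8 earlier libraries. In a fit without the filter, which took all 29 members, 18 rose and 1 fell, against 34.5% and 15.1% of the 17218 loci fitted.

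The largest rises were those of Osiris genes. A cluster on chromosome 15 holds 6 of the 8 Osiris members, between positions 4566030 and 4646726 (genome build: not given in the sources used here). *Osi9*, between 4578466 and 4580519, had 919 and 734 FPKM in female and 373 and 1810 FPKM in male libraries at 55–70 h, and between 0.166 and 0.385 FPKM in the 8 earlier libraries. Its level rose by 9.36 on the log2 scale (standard error 0.38, adjusted p = 3.22e-08). *Osi7*, between 4566030 and 4570110, had 506 and 449 FPKM in females and 240 and 1499 FPKM in males at this age, and at most 0.221 FPKM before. It rose by 8.83 (standard error 0.43, adjusted p = 7.94e-08). No library of 55–70 h came near any earlier library in either gene.

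The other members of the cluster had the same course at lower levels. *Osi18* at 55–70 h had 291 and 118 FPKM in females and 152 and 444 FPKM in males. *Osi20* had 277 and 112 FPKM in females and 110 and 377 FPKM in males, and *Osi19* had 225 and 103 FPKM in females and 94.1 and 298 FPKM in males. *Osi18* rose by 7.62, *Osi20* by 7.28 and *Osi19* by 7.16 on the log2 scale (standard errors 0.34, 0.37 and 0.34), and none of these exceeded 0.428 FPKM in an earlier library. *Osi17* was far weaker, with 4.80 and 13.8 FPKM in females and 5.69 and 64.9 FPKM in males, and rose by 3.38 (standard error 0.58, adjusted p = 5.59e-04). The order of levels, *Osi9* > *Osi7* > *Osi18* > *Osi20* > *Osi19* > *Osi17*, was the same in all 4 libraries of 55–70 h, but *Osi18*, *Osi19* and *Osi20* lay closer to each other than the libraries of a group did. Together the 6 loci had 2223 and 1530 FPKM in females and 974 and 4493 FPKM in males.

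*Osi23*, which lies apart on chromosome 8, behaved differently from the cluster. In *Drosophila* this gene is needed for the pores in the cuticle of olfactory sensilla. The files hold it as a pair of loci that overlap by 401 bp, between 2307625 and 2309823, so fragments may have been divided between them. The longer locus had 0.0697 and 0.0362 FPKM in females and 0.135 and 0.109 FPKM in males at 10–15 h. Expression then stood at 9.12 and 13.4 FPKM in females and 9.35 and 9.07 FPKM in males at 25–40 h, and at 55–70 h at 5.35 and 6.31 FPKM in females and 8.89 and 10.6 FPKM in males. It rose between 10–15 h and 25–40 h, by 3.35 (standard error 0.17, adjusted p = 4.85e-08), and its later difference of −0.38 did not pass the test (adjusted p = 0.0841). The shorter locus, listed at 0 in both female libraries of 10–15 h, had differences of 2.07 (adjusted p = 8.07e-06) and −0.30 (adjusted p = 0.265) between successive ages. The Osiris genes of the cluster, by contrast, had differences of 0.01 to 0.37 between the first pair of ages, none of which passed the test.

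Among the CPR genes 7 of 9 tested rose to 55–70 h and 0 fell. *CPR12*, on chromosome 6 between 4695769 and 4705244, reached the highest level of any member in female libraries, with 2788 and 1854 FPKM, against 109 and 797 FPKM in male libraries. It had 8.39 to 15.0 FPKM in the 4 libraries of 25–40 h and rose by 6.02 (standard error 0.49, adjusted p = 2.54e-06). *CPR17*, on chromosome 2 between 1268133 and 1273031, had 181 and 145 FPKM in females and 90.4 and 439 FPKM in males at 55–70 h, and at most 0.172 FPKM before. It rose by 7.31 (standard error 0.38, adjusted p = 1.22e-07); in all 4 libraries of 55–70 h its level lay above its own upper bound, as did those of *Osi9*, *Osi18* and *Osi20*, and in 3 of the 4 that of *CPR14*. Computed from the midpoint of the bounds, all of these rises passed the test as well. This too is a description only, since these loci could pass the filter only through 55–70 h.

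*CPR27* and *CPR14* were also below 1 FPKM until 55–70 h. *CPR27* then had 14.1 and 28.8 FPKM in females and 11.2 and 80.4 FPKM in males, and rose by 4.58. *CPR14* had 89.7 and 85.2 FPKM in females and 4.91 and 33.6 FPKM in males, and rose by 4.43. *CPR19* and *CPR21*, like *CPR12*, rose at both steps of age, averaged over the sexes. For *CPR19* the later rise was not shared by them: female libraries had 4.10 and 3.24 FPKM at 55–70 h after 2.61 and 6.57 FPKM, and male libraries 8.77 and 18.9 FPKM after 1.22 and 1.998 FPKM. *CPR21* was at most 0.0925 FPKM at 10–15 h and between 5.09 and 9.16 FPKM at 25–40 h. At 55–70 h it had 261 and 249 FPKM in females but 1.05 and 65.3 FPKM in males, so the male replicate 1 was below every library of 25–40 h. The reference annotation gives the symbol *CPR21* to a neighbouring gene and *CPR22* to this place, so the name of this locus is uncertain. *CPR14*, *CPR27* and *CPR28* overlap other loci (*CPR27* and *CPR28* over their whole length), with which fragments may have been divided. *CPR28* and *CPR5* did not pass the test at the later step, with differences of 0.12 (adjusted p = 0.634) and −0.69 (adjusted p = 0.0643). The small difference of *CPR28* had the opposite sign with median-ratio scaling, TPM and quantile normalization, and passed the test as a fall with the last (−0.54, adjusted p = 0.0146).

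**Figure D2:**
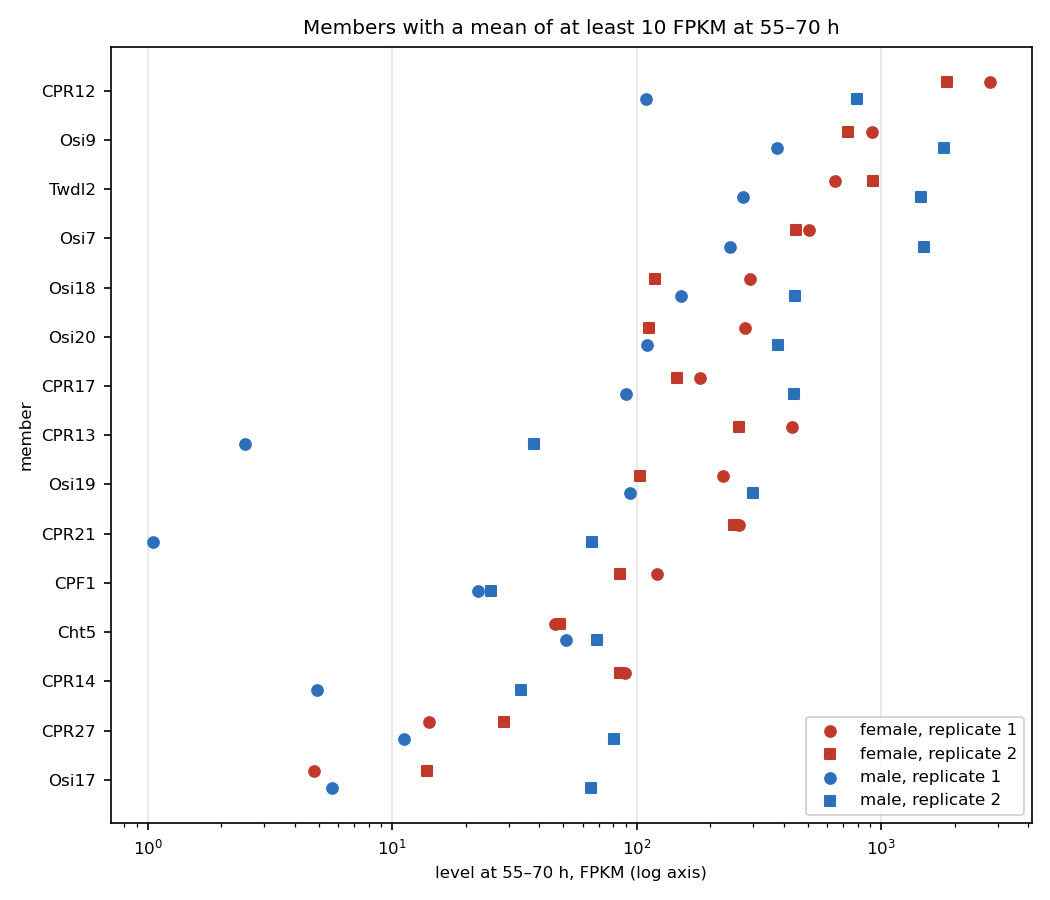
Level at 55–70 h in FPKM (log axis) of the members whose mean at this age was at least 10 FPKM, in female replicates 1 and 2 and male replicates 1 and 2. Both female points of *CPR12*, *CPR13*, *CPR14*, *CPR21* and *CPF1* lie right of both male points, whereas those of *Osi7*, *Osi9*, *Osi19*, *Osi20*, *CPR17*, *CPR27* and *Twdl2* lie between the male replicates.

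*Twdl2*, a Tweedle gene on chromosome 8 between 13051687 and 13056561, had 648 and 924 FPKM in female and 273 and 1460 FPKM in male libraries of 55–70 h. In the 8 earlier libraries it was present at 8.30 to 16.9 FPKM. It rose by 5.83 (standard error 0.41, adjusted p = 9.75e-07). Tweedle proteins were named for the altered body shape of *Drosophila* mutants. The chitinase gene *Cht5* stood at 46.2 and 48.7 FPKM in females and 51.3 and 68.8 FPKM in males of this age, and at 16.8 to 31.8 FPKM before, a rise of 1.03 (standard error 0.20, adjusted p = 0.00155). *Cht3*, the other chitinase locus, had 5.01 and 7.50 FPKM in females and 12.5 and 14.5 FPKM in males, after 0.624 to 1.55 FPKM before. It rose by 2.58 (standard error 0.17, adjusted p = 5.82e-07). This rise is a description only, since the locus averaged below 1 FPKM over the 8 earlier libraries and could pass the filter only through 55–70 h. Neither chitinase reached the lowest 55–70 h level of *Twdl2* in any library.

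The apidermin loci were all below the filter. *Apd-1*, *Apd-2* and *Apd-3*, on chromosome 4, stayed at or below 0.621 FPKM in every library and were listed at 0 in 3 to 6 of the 12. The locus written *apd-3* had 0.551 and 0.710 FPKM in females and 1.04 and 2.34 FPKM in males at 55–70 h. Of the weakly expressed members *CPR15* reached 2.63 FPKM, in male replicate 2 at 55–70 h, and *CPF2* reached 2.52 FPKM, in female replicate 2 at 25–40 h.

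From 10–15 h to 25–40 h 8 of the 21 tested members rose and 1 fell, where 47.6% of all tested loci rose and 23.6% fell. Without the filter 10 of the 29 rose and 2 fell, where 38.5% and 19.6% of all loci fitted did. The median difference of the members, 0.21, was below that of all tested loci, 0.50. *CPF1* rose most, by 4.51 (standard error 0.21, adjusted p = 2.36e-08). It had 60.1 and 80.6 FPKM in female and 40.8 and 40.4 FPKM in male libraries of 25–40 h, the highest level of any member in each of them, after 1.88 and 0.745 FPKM in females and 1.65 and 1.44 FPKM in males at 10–15 h. *CPR5*, *CPR19*, *CPR28*, *CPR12* and *CPR21* rose by 1.36 to 2.97. *CPR5* illustrates their low level, with 4.88 and 6.66 FPKM in females and 2.37 and 2.87 FPKM in males at 25–40 h, against at most 0.0479 FPKM at 10–15 h. With a pseudocount of 5 FPKM neither *CPR12* (adjusted p = 0.0641) nor *CPR21* (adjusted p = 0.0734) passed the test.

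*CPR13* differed in course from the other tested CPR genes. At 10–15 h it was the most strongly expressed member, with 123 and 126 FPKM in females and 110 and 100 FPKM in males, when the next, *Cht5*, was at most 31.8 FPKM. It fell by 3.71 to 25–40 h, averaged over the sexes (standard error 0.58, adjusted p = 1.77e-04), the 1 fall among the tested members at this step. In the fit without the filter *CPR9* fell as well; it had a listing at 0 and 0.696 FPKM in females and 0.296 FPKM and a listing at 0 in males at 25–40 h, after 1.05 to 1.75 FPKM at 10–15 h. *CPR13* then rose to 55–70 h by 2.83 on average (standard error 0.58, adjusted p = 0.0019), a rise not shared by the sexes. Its female libraries of 55–70 h had 432 and 261 FPKM, after 1.34 and 2.09 FPKM at 25–40 h. The male libraries of these ages overlapped, with 2.49 and 38.1 FPKM after 36.6 and 21.3 FPKM. In 9 libraries the level of *CPR13* lay above its own upper bound, which makes its values uncertain. Computed from the midpoint of the bounds instead, both changes with age passed the test as well.

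**Figure D3:**
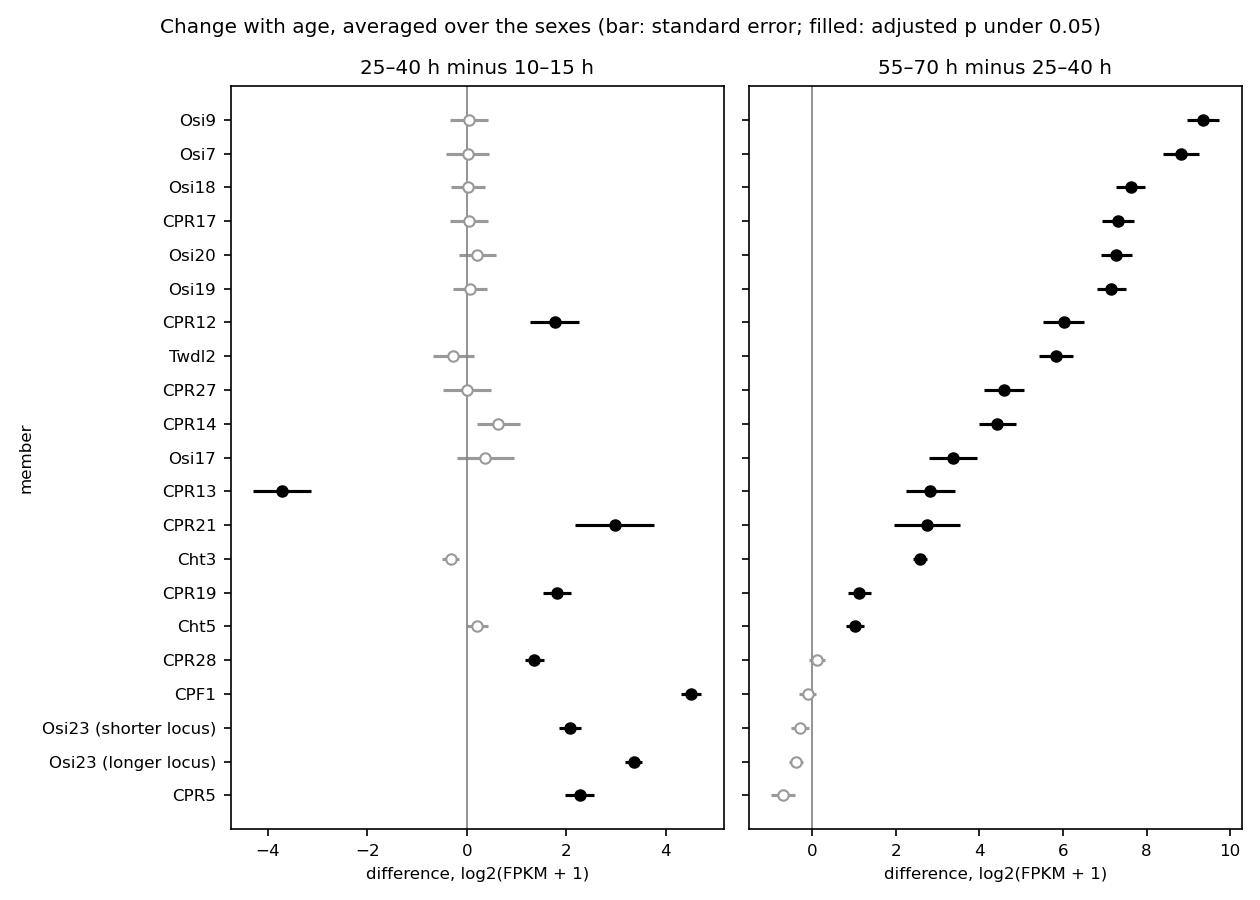
Difference between successive ages on the log2(FPKM + 1) scale, averaged over the sexes, for each tested member; bars are standard errors and filled points have an adjusted p under 0.05. The 16 filled points of the 55–70 h minus 25–40 h panel all lie above 0, and *CPR13* is the only filled point below 0 in the panel of the earlier step.

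Females and males were compared at each age, since the study sought regulators that differ between the sexes. At 10–15 h no member passed the test (0 higher and 0 lower in females by limma, and 0 at an unadjusted p under 0.05), where 1.84% of all tested loci were higher and 7.23% lower in females. An unadjusted p under 0.05 was found there in 26.1% of all loci. In the next window 0 were higher and 1 was lower, against 7.96% and 6.68% of all loci. By 55–70 h 2 were higher and 0 lower, against 0.327% and 0.317% of all loci. At that age 8 of the 21 had an unadjusted p under 0.05, as had 18.7% of all loci. Averaged over the ages, 1 was higher and 1 lower, against 3.75% and 8.18%.

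*CPR13* differed between the sexes in opposite directions at the later ages. Embryos of 25–40 h had 1.34 and 2.09 FPKM if female, against 36.6 and 21.3 FPKM if male, a female minus male difference of −3.43 (standard error 0.82, adjusted p = 0.0193). Those of 55–70 h had 432 and 261 FPKM if female, against 2.49 and 38.1 FPKM if male, and differed by 4.85 (standard error 0.82, adjusted p = 0.0346). The libraries of the sexes did not overlap at either age. The change of the sex difference between these ages, 8.28, passed the test of the interaction (standard error 1.16, adjusted p = 0.0038), and did so in every alternative run. On its own, the call at 55–70 h was lost when the fit was restricted to that age (adjusted p = 0.51), without female replicate 1 of that age (adjusted p = 0.315), and without any 1 of the 8 libraries of the earlier ages (adjusted p = 0.0594 to 0.0892). The call at 25–40 h was lost without any 1 of the 4 libraries of that age (adjusted p = 0.0541 to 0.137). Over the loci that are no members, the 25–40 h libraries lay at 0.678 and 0.647 of the way from 10–15 h to 55–70 h in females and at 0.470 and 0.542 in males. The part of this difference in the sex differences at 25–40 h was not tested.

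*CPF1* was higher in females at 55–70 h, with 121 and 85.4 FPKM against 22.4 and 25.3 FPKM in males. The difference was 2.05 (standard error 0.29, adjusted p = 0.018), and the average of the 3 ages was 0.88 (adjusted p = 0.0161). The earlier differences of −0.18 at 10–15 h and 0.76 at 25–40 h did not pass the test. The locus shares 489 bp with *RpL26*, a ribosomal protein gene, and 1179 bp with *CPF2*, and whether strand was used in counting was not stated. *RpL26* had 1893 and 1807 FPKM in females and 1597 and 1565 FPKM in males at 55–70 h, a difference of 0.23 (adjusted p = 0.59). The call of *CPF1* at 55–70 h was lost when the fit was restricted to that age (adjusted p = 0.356), without either of the first replicates of 55–70 h (adjusted p = 0.174 for the female and 0.0651 for the male library), and without male replicate 1 or 2 of 10–15 h (adjusted p = 0.0534 and 0.0535). Its average over the ages was lost without female replicate 1 of 55–70 h or either male library of 10–15 h (adjusted p = 0.0521 to 0.0578).

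*CPR12*, *CPR14* and *CPR21* did not overlap between the sexes at 55–70 h either, but did not pass the test. Their differences were 2.94 for *CPR12* (standard error 0.69, adjusted p = 0.0892), 2.63 for *CPR14* (standard error 0.61, adjusted p = 0.0868) and 4.46 for *CPR21* (standard error 1.12, adjusted p = 0.103). With *CPF1*, *CPR13* and *CPR28* they made 6 of 21 members whose female libraries both lay above both male libraries, where 13.2% of all tested loci did. In 4 members, *CPR19*, *Cht3*, *Cht5* and the longer *Osi23* locus, both female libraries lay below both male libraries, where 35.4% of all loci did. The corresponding counts were 7 above and 3 below at 25–40 h, where 27.7% and 23.6% of all loci were, and 2 above and 7 below at 10–15 h, where 19.4% and 42.5% were.

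*Cht3* had a difference of −0.50 averaged over the ages (standard error 0.14, adjusted p = 0.0462), a call lost in 15 of 22 alternatives, without any 1 library other than female 25–40 h replicate 1 and female 55–70 h replicate 2 among them (adjusted p = 0.0544 to 0.127). *CPR19* had 4.10 and 3.24 FPKM in females against 8.77 and 18.9 FPKM in males at 55–70 h, after 2.61 and 6.57 FPKM in females against 1.22 and 1.998 FPKM in males at 25–40 h. The change of its sex difference between these ages was −2.61 (standard error 0.57, adjusted p = 0.0216), without either single difference passing the test. The call was lost without female 25–40 h replicate 2, male 25–40 h replicate 1 or either female library of 55–70 h (adjusted p = 0.0505 to 0.0806). With *CPR13* it made 2 of 21 members that passed this test, where 8.49% of all loci did, and 9 of 21 had an unadjusted p under 0.05, where 26.7% did. At the earlier step 0 of 21 passed the test of the interaction by limma, where 7.49% did, and 2 had an unadjusted p under 0.05, where 25.2% did.

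**Figure D4:**
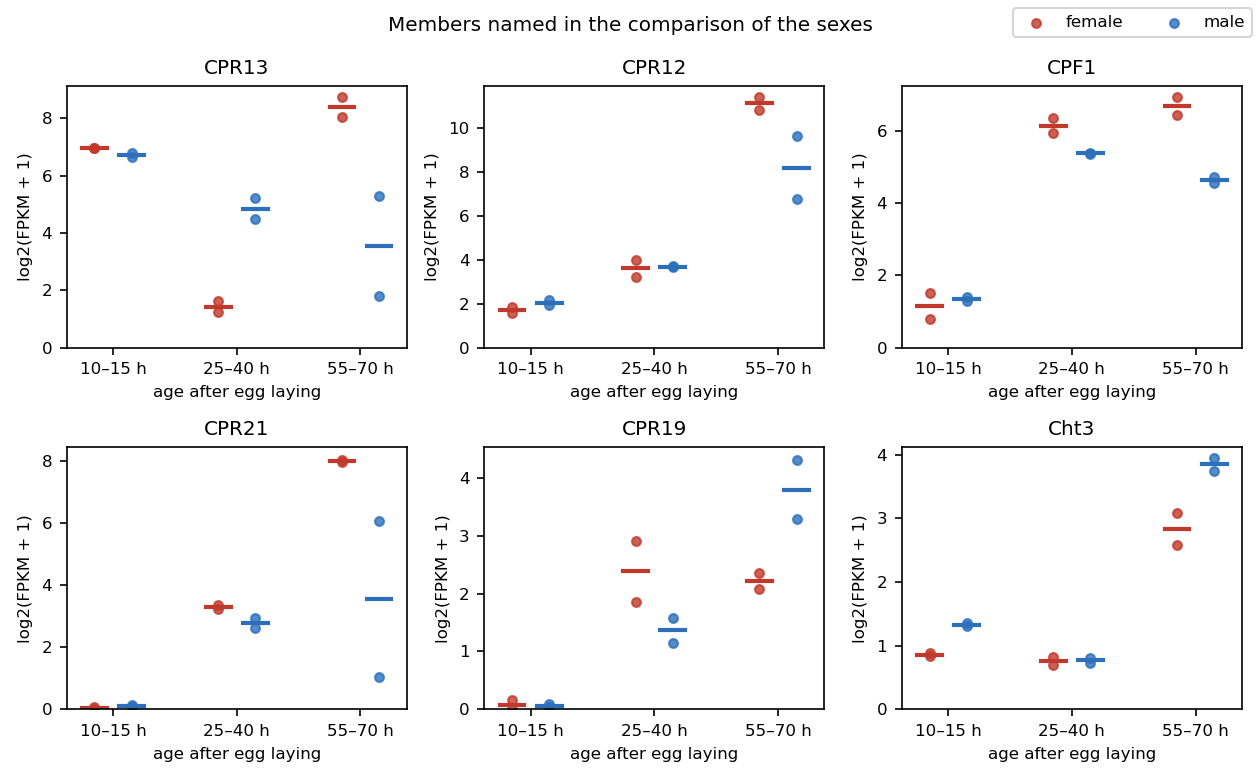
Level on the log2(FPKM + 1) scale of 6 members by age, females in red left of males in blue; points are libraries and horizontal lines the means of 2. *CPR13* is lower in females at 25–40 h and higher at 55–70 h, *CPF1* diverges at 55–70 h, and the male points of *CPR13*, *CPR12* and *CPR21* at 55–70 h lie far apart.

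The male libraries of 55–70 h differed from each other in most of these genes. Replicate 2 exceeded replicate 1 by at least 1 on the log2 scale in 15 of the 21 members, where 6.54% of all tested loci did. The ratio in FPKM was 62.4 in *CPR21*, 15.3 in *CPR13*, 11.4 in *Osi17*, 7.30 in *CPR12*, 6.25 in *Osi7* and 5.36 in *Twdl2*. It was 1.13 in *CPF1*, 1.16 in *Cht3* and 1.34 in *Cht5*, and below 1 in *CPR28* and the shorter *Osi23* locus. The female replicates of this age were apart by at least 1 in 4 members, *Osi17*, *Osi18*, *Osi19* and *Osi20*, where 6.92% of all loci were. In 7 members, *Osi7*, *Osi9*, *Osi19*, *Osi20*, *CPR17*, *CPR27* and *Twdl2*, male replicate 1 was lowest and male replicate 2 highest, with both female libraries between them, a pattern of 5.25% of all loci.

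Some other genes moved with this difference between the male libraries. The 9 muscle marker loci summed to 3902 and 3682 FPKM in females, and to 1234 FPKM in male replicate 1 and 3754 FPKM in replicate 2. Of them 5 were higher by at least 1 in replicate 2, as were 5 of 7 chitin deacetylase and chitin-binding loci but 0 of 6 neuron marker loci, which summed to 24.2 and 28.6 FPKM in females and 31.6 and 32.4 FPKM in males. In the other lists given below, so were 4 of 13 tanning, 1 of 6 apical matrix and epidermal, and 1 of 16 ecdysone and juvenile hormone loci. Of the blastoderm loci 0 of 2 were, and of chitin synthesis 0 of 1. The part of these loci in the results was not tested. Without male replicate 1, 5 members passed the test between the sexes at 55–70 h: *CPR13* (3.11) and *CPR21* (1.95) were higher in females, and *CPR17* (−1.43), *Osi7* (−1.65) and *Osi17* (−2.83) were lower, where 0.297% of all loci were higher and 0.356% lower. Without male replicate 2, 6 were higher in females, *CPF1*, *CPR12*, *CPR13*, *CPR14*, *CPR21* and *Twdl2*, by 1.50 to 6.97, and 0 were lower, where 2.43% of all loci were higher and 1.44% lower. The interaction at the later step passed in 10 members without replicate 1, where it did in 7.53% of all loci, and in 5 without replicate 2, where it did in 9.28%. Of these, *CPR13* and *CPR21* were called higher in females with either male library left out. The lone male library was then assumed to vary like the other groups.

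The Osiris and CPR loci stood in a different proportion in the libraries of the sexes at 55–70 h. The summed FPKM of the Osiris loci was 0.590 and 0.584 times that of the CPR loci in females, and 4.24 and 3.04 times in males. *CPR12* alone made up 40.8% and 35.4% of the members' FPKM in females, and 6.90% and 10.5% in males. The same ratio at 25–40 h was 0.378 and 0.528 in females and 0.240 and 0.245 in males, made up on the Osiris side almost only of *Osi23*. These ratios are a description and were not tested.

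In a pair of clusters the tested genes next to the members also rose to 55–70 h, by widely differing amounts. Within the Osiris cluster on chromosome 15 lay 12 further loci, 7 of them tested. All 7 rose to 55–70 h, by 0.71 to 7.91, where 36.4% of all tested loci rose. Most of the 7 were below 1 FPKM in all 8 earlier libraries, a pattern that 4.26% of all tested loci showed up to 55–70 h. Those could pass the filter only through 55–70 h, so their rise is a description only. They included *LOC408538*, with 287 and 152 FPKM in females and 181 and 677 FPKM in males at this age (a rise of 7.91), and *LOC552543*, with 376 and 182 FPKM in females and 137 and 393 FPKM in males (a rise of 7.71). Between *CPR17* and *CPR14* on chromosome 2, from 1268133 to 1368394, lay 8 further loci, and all 5 that were tested rose, by 0.72 to 8.11. The same limit holds for *LOC100578244*, *LOC724649*, *LOC724735* and the weaker *LOC100578507* locus among these, which averaged below 1 FPKM over the 8 earlier libraries. The smallest rise was that of a *LOC100578507* locus that overlaps *CPR14*, with 61.8 and 52.0 FPKM in females and 65.8 and 54.5 FPKM in males at 55–70 h, which was highest at 10–15 h, at 112 to 186 FPKM. *LOC724649* among them had 2949 and 2483 FPKM in females and 20.8 and 570 FPKM in males at 55–70 h, with at most 1.45 FPKM before. *LOC724735* had 18.2 and 7.78 FPKM in females, against a listing at 0 and 0.647 FPKM in males, and was higher in females at this age by 3.34 (adjusted p = 0.00528). It could pass the filter only through its female libraries of 55–70 h, so this sex difference is a description only. These loci were named after their values were seen. Between *CPR28* and *CPR13* on chromosome 6, in contrast, the 1 tested further locus fell, and the 7 further loci between the apidermins on chromosome 4 were all below the filter.

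All 7 tested loci of the list of chitin deacetylases and chitin-binding proteins rose from 25–40 h to 55–70 h, where 36.4% of all tested loci did. Their median difference was 5.73. *serp* and *verm*, deacetylases that shape the chitin matrix of the *Drosophila* trachea, rose by 6.19 and 5.73. *Cpap3-e* (1 of its 2 loci) rose by 5.94 and *Cpap3-a*, a chitin-binding protein gene, by 5.93. This *Cpap3-e* locus was below 1 FPKM in every earlier library, and the other *Cpap3-e* locus averaged below 1 FPKM over the earlier libraries. The 2 *Cpap3-e* loci, which are counted among the 7, could pass the filter only through 55–70 h. Their rise is therefore a description only. *verm* was also higher in females at 25–40 h, with 9.18 and 17.3 FPKM against 2.63 and 2.77 FPKM in males (difference 1.88, adjusted p = 0.0165). Of the list of chitin synthesis 1 gene was found by its symbol, *mmy*, which makes the sugar nucleotide used to build chitin. It rose at the earlier step, by 2.42 (adjusted p = 1.65e-05), and had a later difference of −0.39 (adjusted p = 0.261).

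Of 13 tested loci of tanning and pigmentation 4 rose and 2 fell to 55–70 h, where 36.4% and 19.0% of all tested loci did. Their median difference was −0.04, against 0.23 over all tested loci. Between the earlier ages 5 rose and 3 fell, where 47.6% and 23.6% of all tested loci did. *Y-h*, *Y-x2* and *Y-y* of the yellow family rose by 1.90 to 3.60 at the later step. All of these averaged below 1 FPKM over the 8 earlier libraries and could pass the filter only through 55–70 h, so their rise is a description only. *Ddc*, the dopa decarboxylase of tanning, rose by 2.41 between the earlier ages (adjusted p = 0.00119). *Y-y* was higher in females averaged over the ages, by 0.60 (adjusted p = 0.0341), and *Y-e* was lower in females at 25–40 h (difference −1.73, adjusted p = 0.0147).

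Of 6 tested loci of apical matrix and epidermal regulators 4 rose and 2 fell to 55–70 h, where 36.4% and 19.0% of all tested loci did. *dyl*, an apical matrix protein gene, rose by 4.94, with 94.4 and 81.2 FPKM in females and 48.6 and 187 FPKM in males at 55–70 h. A *grh* locus, for the epidermal transcription factor Grainy head, rose by 3.26, and *ovo*, whose *Drosophila* product patterns cuticle hairs, fell by 3.12. This *grh* locus was higher in females at 25–40 h, with 4.14 and 6.48 FPKM against 0.544 and 0.959 FPKM in males (difference 1.83, adjusted p = 0.00195). The other *grh* locus overlapped between the sexes at this age, with 1.82 and 1.21 FPKM in females and 0.961 and 1.51 FPKM in males. That locus averaged below 1 FPKM over the 8 earlier libraries and could pass the filter only through 55–70 h, so its rise is a description only. *ovo* was lower in females at 25–40 h (difference −1.61, adjusted p = 0.0251). *Trh*, lower in females at 10–15 h (difference −2.05, adjusted p = 0.0217), and *Dp* were matched by symbol only, and which genes they stand for was not verified.

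In the list of ecdysone and juvenile hormone genes 11 of 16 tested loci rose and 1 fell to 55–70 h, where 36.4% and 19.0% of all tested loci did. The median difference of the list was 1.22. *jhamt*, the methyltransferase that completes juvenile hormone, rose by 7.48, with 199 and 307 FPKM in females and 193 and 329 FPKM in males. *Hr4* and a *Hr46* locus, for nuclear receptors that respond to ecdysone, rose by 4.10 and 4.05, and *CYP315A1*, of ecdysone synthesis, by 3.30. *Cyp314a1*, the hydroxylase that activates ecdysone, fell at the earlier step, by 4.47. Its later fall of 1.22, averaged over the sexes, was not shared by them: it had 20.5 and 21.1 FPKM in females and 11.2 and 17.2 FPKM in males at 55–70 h. Its libraries of 25–40 h had 5.44 and 8.97 FPKM in females against 338 and 144 FPKM in males (difference −4.79, adjusted p = 7.94e-05). As marks of stage, 8 of 9 muscle loci rose and 1 fell to 55–70 h, 4 of 6 neuron loci rose and 0 fell, and the 2 blastoderm loci, *Kr* and *gt*, both fell. The muscle loci *TpnI*, *TpnT*, *TpnCIIb* and 1 *Mef2* locus were below 1 FPKM in all 8 earlier libraries, as were *Syn* of the neuron list, *jhamt* and *CYP307B1*. *Hr38*, the weaker *Hr46* locus and both *Rab3* loci of the neuron list averaged below 1 FPKM over these libraries. All of these loci could pass the filter only through 55–70 h, so any rise of theirs is a description only.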

How the data were processed

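The authors deposited FPKM for each locus in each of 12 libraries, together with its confidence bounds and the status of the estimate. Cufflinks 2.2.1, Bowtie2 2.2.6 and TopHat2 are named in the submitters' processing notes. FPKM relate fragments to length and library total, so a growing group of abundant transcripts lowers all others. All tables had 0 unmapped columns. Sex, age and replicate were taken from the labels. Values were analysed as log2(FPKM + 1), without further scaling, for the 10105 loci that averaged 1 FPKM or more and had a valid status in every library. A model of 6 group means (6 residual and 4.42 prior degrees of freedom) was fitted in R 4.3.3 by limma 3.58.1, a variance trend included, and p-values were adjusted by Benjamini–Hochberg over all loci. The fit was tested on simulated data. P-values rest only on the spread among these libraries, and this spread may be technical. Python 3.11.15 with numpy 2.4.6 and pandas 2.3.3 joined the tables, and matplotlib 3.10.9 drew the figures.

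Members, gene lists, tests and alternatives were chosen with earlier results of these data known. Named members were the up to 5 largest calls per direction of each age contrast, calls between the sexes, the highest of each family at 55–70 h, members that ran against their family, families of 5 or fewer, and up to 4 called genes per list, with those called between the sexes. Other members named are given with their values. Alternatives were pseudocounts of 0.1 and 5 FPKM, no filter or one of 5 FPKM, TPM, quantile normalization, median-ratio scaling, only the libraries compared, a replicate block, no variance trend, adjustment without loci of several genes and each library left out; the midpoint of the bounds was chosen after seeing the data. Chromosome numbers follow the order of the files' sequence identifiers and were checked against gene positions of Amel_HAv3.1 in RefSeq, whose table matched 15 of the 29 members by symbol. Of its positions only chromosome and gene order were used, since the files' build was not named. Sequences were not used here.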

Additional observations from a re-analysis of the deposited data

Results flagged for a closer look

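These members are given a closer look because their sex difference changed between ages by the test of the interaction. In *CPR13* the female minus male difference changed by 8.28 on the log2(FPKM + 1) scale between 25–40 h and 55–70 h (adjusted p = 0.0038 from limma), with the libraries of the sexes apart in opposite directions at these ages. In *CPR19* it changed by −2.61 (adjusted p = 0.0216), with both female libraries below both male libraries at 55–70 h and above them at 25–40 h. Groups of 2 libraries were too small for a test of outlying libraries.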

How the results depend on the processing

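Of 25 calls between ages, 22 passed the test in the same direction under every alternative run. Among the 22 are the later rises of the 9 members below 1 FPKM in all 8 earlier libraries, and that of *Cht3*, which averaged below 1 FPKM over them. These rises are a description only. *CPR12* at the earlier step was lost with a pseudocount of 5 FPKM, median-ratio scaling and quantile normalization, *CPR21* at the earlier step with a pseudocount of 5 FPKM, and *CPR19* at the later step with quantile normalization. Median-ratio scaling moved the median of all loci to 0.08 at the earlier and 0.00 at the later step, against 0.50 and 0.23, and the calls of all loci to 3864 higher and 3708 lower, and to 3055 and 3009, against 4812 and 2383, and 3674 and 1920. With quantile normalization the later step had 2469 higher and 3700 lower calls. The later difference of *CPR28* was −0.0659 with median-ratio scaling, −0.54 with quantile normalization (adjusted p = 0.0146, lower at 55–70 h) and −0.0940 with TPM, and lay between −0.0236 (without male 25–40 h replicate 1) and 0.258 as libraries were left out; that of *CPF1* lay between −0.227 and 0.0237 (without female 55–70 h replicate 2), with 0.00278 without female 25–40 h replicate 2.

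Counts of members moved as follows, and the cause was not tested. Higher in females at 55–70 h were 0 with a pseudocount of 0.1 FPKM or only the libraries compared, 1 with median-ratio scaling or TPM, and 4 with the midpoint of the bounds; 1 was lower with a pseudocount of 5 FPKM. At 25–40 h 0 were lower with only the libraries compared. Averaged over the ages 0 were lower with a pseudocount of 0.1 FPKM, no filter, a filter of 5 FPKM (which *Cht3* does not pass), median-ratio scaling and quantile normalization. At the earlier step 4 rose with a filter of 5 FPKM, which tests fewer members, and 2 fell with a pseudocount of 0.1 FPKM, median-ratio scaling, quantile normalization, TPM or only the libraries compared. At the later step 2 fell with median-ratio scaling or TPM, 4 with quantile normalization and 1 with the midpoint of the bounds. The interaction at the later step had 4 calls with a pseudocount of 5 FPKM and 1 with a filter of 5 FPKM, median-ratio scaling or only the libraries compared, and at the earlier step 1 with only the libraries compared. Leaving out each library gave 0 to 6 higher and 0 to 3 lower in females at 55–70 h, 0 to 1 higher and 0 to 1 lower at 25–40 h, 0 to 6 higher and 0 to 2 lower averaged over the ages, 8 to 9 higher and 1 lower at the earlier step, 16 higher and 0 to 1 lower at the later step, and 0 to 1 and 1 to 10 calls of the interaction at the earlier and later step. The 10 calls were without male 55–70 h replicate 1, where 7.53% of all loci had one; without replicate 2 there were 5, where 9.28% of all loci had one. The call of *CPR13* at 55–70 h was lost in 14 of 24 alternatives and at 25–40 h in 5 of 24, that of *CPF1* at 55–70 h in 6 of 24, that of *Cht3* in 15 of 22 and the interaction of *CPR19* in 7 of 23; that of *CPR13* was lost in 0 of 24.

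Replicate numbers are shared by the groups, but the labels do not say whether a number pairs the libraries. Deviations of replicate 1 correlated between groups at −0.279 to 0.166, which cannot tell how the pools were collected. With a replicate block 1 member was higher in females at 55–70 h, 0 were lower averaged over the ages, and 1 fell at the later step. Depth in reads is unknown, so differences of members near 0 FPKM could not be resolved.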

Other observations

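Several loci that the files list under LOC numbers carry CPR symbols in the RefSeq table. They were looked up after their values were seen. The 5 loci, for the 4 symbols CPR18 (*LOC100578244*), CPR21 (*LOC724649*), CPR6 (*LOC100577189*) and CPR16 (*LOC100576341*, as 2 overlapping loci), were all tested, and all 5 rose from 25–40 h to 55–70 h. Over all tested loci 36.4% rose. All 5 averaged below 1 FPKM over the 8 earlier libraries and could pass the filter only through 55–70 h. Their rise is therefore a description only. *LOC724649* rose by 8.11 (standard error 0.75, adjusted p = 6.61e-06), and with 2949 and 2483 FPKM in females and 20.8 and 570 FPKM in males at 55–70 h it stood above *CPR12* in both female libraries, and below it in both male libraries. *LOC100577189* had 31.6 and 27.0 FPKM in females and 7.56 and 47.3 FPKM in males at this age, a rise of 4.52 (standard error 0.42). The 2 *LOC100576341* loci rose by 4.92 and 4.15. At the earlier step 1 of the 5 rose, where 47.6% of all tested loci did. None passed the test between the sexes at any age by limma, although *LOC724649* (difference 4.60, adjusted p = 0.0834) and *LOC100578244* (22.9 and 32.8 FPKM in females against 0.436 and 8.58 FPKM in males, difference 2.94, adjusted p = 0.0758) did not overlap between the sexes at 55–70 h.

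Of the 5 rows left out because they held a second gene name, the *CPR26* row had 164 and 139 FPKM in females and 38.3 and 99.2 FPKM in males at 55–70 h, and 3.33 to 8.49 FPKM at 25–40 h. The *CPR23* row had 17.5 and 33.8 FPKM in females and 5.44 and 24.7 FPKM in males at 55–70 h, and 31.7 and 20.2 FPKM in females and 42.8 and 42.6 FPKM in males at 25–40 h. The row that joins *CPR28* and *scra* had 20.5 and 27.0 FPKM in females and 37.2 and 25.3 FPKM in males at 55–70 h, and 15.7 to 41.6 FPKM at 25–40 h. The *CPR20* row had 24.4 and 26.7 FPKM in females and 16.3 and 20.5 FPKM in males at 55–70 h. The *CPR7* row had 37.0 and 36.4 FPKM in females and 39.3 and 35.0 FPKM in males at 55–70 h, and was already at 9.80 to 14.3 FPKM at 10–15 h.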
